A study of Mus musculus with 24 samples.

Results

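A set of 44 cell cycle genes was followed in macrophages sorted from mouse lungs after bleomycin: 18 genes of DNA replication and entry into S phase, and 26 genes of mitosis. The genes were taken by symbol from a named list, with no measured value in the rule. The list was chosen with earlier results of these data known. All 44 were found by gene ID in both deposited count tables, among the 49022 genes that the tables share.

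A dividing cell copies its DNA in S phase and parts the copies in mitosis. E2F factors and cyclin E open S phase, the MCM helicase unwinds origins that Cdc6 has licensed, and cyclin B with Cdk1 then drives mitosis, which ends when the anaphase promoting complex marks cyclin B for destruction. Alveolar macrophages of the lung can renew themselves by division in place, whereas many macrophages that appear after lung injury derive from blood monocytes.

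The series holds 24 polyA RNA libraries in 8 groups of 3. Bleomycin, a drug that breaks DNA and serves to model lung fibrosis, was given into the trachea at 3 µg per g body weight, and controls received PBS. Wild-type C57BL/6J mice gave CD11b+ SiglecF- macrophages, called interstitial macrophages (IMs) here, at day 7 after bleomycin and at day 7 after PBS. Spp1-EGFP knock-in mice, in which EGFP reports the osteopontin gene Spp1, gave the other 6 groups. After bleomycin these were EGFP+ IMs of day 14, EGFP+ IMs of day 7 and EGFP- IMs of day 7, with EGFP+ CD11b- SiglecF+ macrophages, called alveolar macrophages (AMs) here, at days 14 and 30 after bleomycin and at day 7 after PBS. All 6 reporter groups carry the knock-in allele and the wild-type groups do not. The labels do not say whether the 3 libraries of a group came from separate animals, so p-values measure the spread between these libraries, which may be technical. Age, sex and pooling are not given in the sources used here.

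Levels are in CPM, a gene's count scaled to a common library total, and total counts ran from 13450053 to 24580620 per library. Log2 fold changes and adjusted p-values are from the quasi-likelihood F test of edgeR, 2-sided, with TMM scaling and Benjamini-Hochberg adjustment over all genes tested in a comparison. A gene is said to rise or fall at an adjusted p under 0.05, and each error of a log2 fold change is its SE. TMM raised the log2 fold changes by 0.22 over total-count scaling for IMs at day 14 against day 7, by 0.19 and 0.11 for AMs at days 14 and 30 against PBS, and by 0.11 for IMs against AMs at day 14, and moved the other comparisons by less than 0.1. Macrophage markers (6 genes, Lyz2 the most abundant) were detected in every group, from 4847 to 4906 CPM in EGFP- IMs to 55929 to 61276 CPM in AMs at day 30. Itgam, which encodes CD11b, ran from 151 to 406 CPM in IM libraries and from 5.65 to 30.9 CPM in AM libraries, and Siglecf from 2.43 to 25.7 CPM in IM and from 108 to 428 CPM in AM libraries. The 3 sort genes, Spp1 the most abundant, summed to 3935 to 5116 CPM in EGFP+ IMs and 823 to 948 CPM in EGFP- IMs at day 7. The EGFP+ IMs at day 14 differed most among themselves: Lyz2 had 12016, 33293 and 46284 CPM and Itgam 336, 184 and 151 CPM in libraries 1, 2 and 3, so the counts of the 44 genes called in comparisons that use them are also given with 1 library left out at a time. In bulk RNA, fewer dividing cells and less of these transcripts per dividing cell cannot be told apart.

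Both phases had their highest summed level in wild-type IMs after bleomycin. The replication genes summed to 819, 856 and 839 CPM in bleomycin IMs, against 486, 449 and 448 CPM in PBS IMs. The mitosis genes summed to 816, 848 and 869 CPM in bleomycin IMs, against 399, 372 and 379 CPM in PBS IMs. In reporter mice at day 7 the EGFP+ IMs stood above the EGFP- IMs of the same gate, whose sums lay close to those of wild-type PBS IMs. The replication sum was 625, 767 and 683 CPM in EGFP+ IMs and 449, 437 and 425 CPM in EGFP- IMs, and the mitosis sum was 588, 755 and 671 CPM in EGFP+ IMs and 405, 365 and 350.5 CPM in EGFP- IMs. The mitosis sums of EGFP- and wild-type PBS IMs were close although their parts differed in opposite directions. The 8 kinesin, spindle and centromere genes summed to 117 to 135 CPM in EGFP- IMs and 188 to 199 CPM in wild-type PBS IMs. Mki67 and Top2a together had 142 to 171 CPM in EGFP- IMs and 104 to 118 CPM in wild-type PBS IMs.

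By day 14 the EGFP+ IMs held the lowest mitosis sum of all groups, 294, 256 and 278 CPM, while their replication sum of 534, 449 and 502 CPM lay below every EGFP+ IM library of day 7 and above every EGFP- IM library, in library 2 by less than 1 CPM. With every mitosis gene weighted alike they were not set apart. The mean log2(CPM + 1) was 3.01 to 3.25 in EGFP+ IMs at day 14 and 2.997 to 3.15 in wild-type PBS IMs. AMs held high sums without injury. Their replication sum was 756 to 769.7 CPM after PBS, then 677 to 771 CPM on day 14 and 683 to 711 CPM on day 30 after bleomycin. Their mitosis sum was 545 to 572 CPM after PBS, then 594 to 613 CPM on day 14 and 637 to 657 CPM on day 30, with no overlap between these 3 groups.

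**Figure D1:**
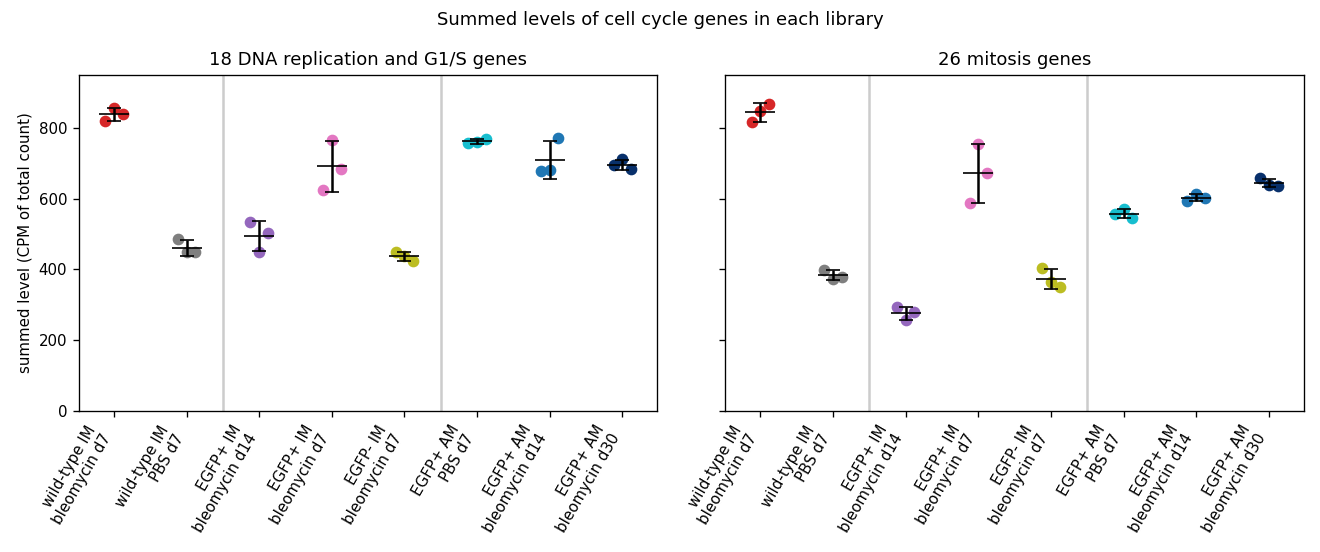
Summed CPM of the 18 replication genes (left) and the 26 mitosis genes (right) in each library; points are libraries, bars the mean and SD of 3. Wild-type IMs after bleomycin were highest in both panels, and EGFP+ IMs at day 14 were lowest in the mitosis panel at 256 to 294 CPM.

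The balance between the phases differed between groups as a ratio of mitosis sum to replication sum. It was 0.991 to 1.04 in wild-type bleomycin IMs and 0.82 to 0.845 in wild-type PBS IMs. The ratio was lowest in EGFP+ IMs at day 14, at 0.55 to 0.571, against 0.941 to 0.984 in EGFP+ IMs and 0.825 to 0.903 in EGFP- IMs at day 7. In AMs it was 0.708 to 0.752 after PBS, 0.779 to 0.902 at day 14 and 0.897 to 0.946 at day 30. Abundant genes carry these sums: Pcna, the sliding clamp of the replication fork, was the most abundant member per kb of exon in all 8 groups, with 79.7 ± 2.58 CPM per kb in wild-type bleomycin IMs and 68.7 ± 2.65 CPM per kb in wild-type PBS IMs (mean ± SD, n = 3 each). With every gene weighted alike the day 14 IMs no longer stood apart: the mean log2(CPM + 1) of replication genes exceeded that of mitosis genes by 0.843 to 0.913 in EGFP+ IMs at day 14, by 0.503 to 0.524 in EGFP+ IMs at day 7 and by 0.896 to 0.932 in wild-type PBS IMs. On that scale the day 14 IMs overlapped wild-type PBS IMs.

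**Figure D2:**
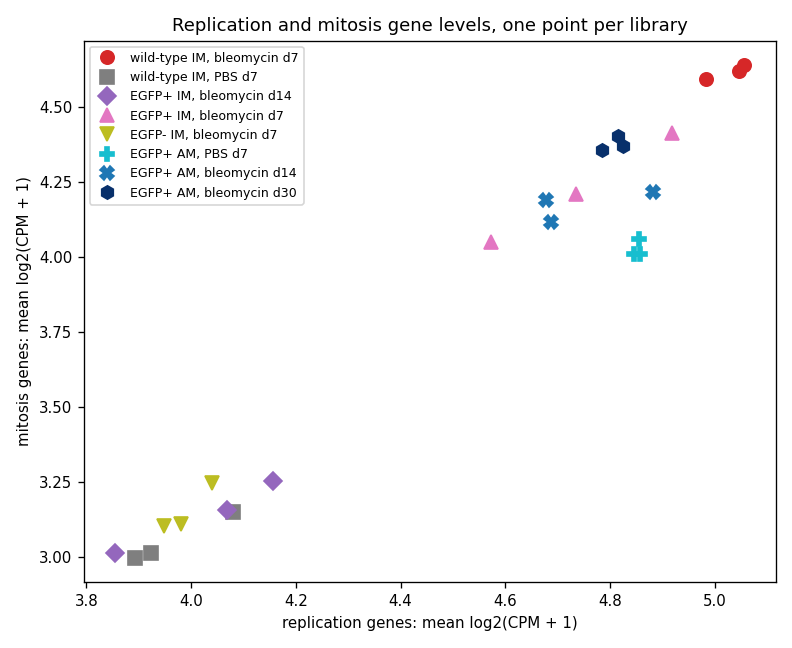
Mean log2(CPM + 1) of the mitosis genes (vertical) against that of the replication genes (horizontal), 1 point per library. The 3 IM groups with low levels lie at the lower left, wild-type bleomycin IMs at the upper right, and the AM libraries differ mainly along the mitosis axis, with PBS lowest and day 30 highest.

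In wild-type IMs at day 7, 40 of the 44 genes rose after bleomycin and 2 fell, where 35.6% of the 15496 genes tested rose and 34.5% fell (together 70.2%). In 40 of the 44 genes every bleomycin library lay above every PBS library, and in 2 every bleomycin library lay below. How many of all genes tested were parted in this way was not counted. Replication genes rose by a median log2 fold change of 1.19 (16 of 18 called) and mitosis genes moved by a median of 1.89 (24 of 26 rose), against a median of 0.00 over all genes tested.

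Among the genes that license and unwind origins, 7 of 9 rose. Mcm2, a subunit of the MCM helicase, had 46, 49.1 and 46.7 CPM after bleomycin, against 24.7, 19.6 and 20.3 CPM after PBS (log2 fold change 1.09 ± 0.09 SE, adjusted p = 1.18e-10). Mcm5, another subunit, had 53.1, 56.5 and 55 CPM after bleomycin, against 22.3, 27.7 and 19.2 CPM after PBS (1.20 ± 0.10 SE, adjusted p = 2.51e-09). Neither gene's groups overlapped, and Mcm6 rose by 1.36 ± 0.07 SE, adjusted p = 3.38e-14. Cdc6, the licensing factor, did not pass the test (0.27 ± 0.23 SE, adjusted p = 0.307), nor did Gins2, a subunit of the complex that joins MCM at the fork (-0.16 ± 0.09 SE, adjusted p = 0.117). All 6 genes of nucleotide supply, clamp and maintenance methylation rose, by sizes that ran from 0.17 to 2.12. Rrm2, the small subunit of ribonucleotide reductase, had 34.5, 37.9 and 32.4 CPM after bleomycin, against 8.71, 7.52 and 7.13 CPM after PBS (2.12 ± 0.11 SE, adjusted p = 4.27e-14). Uhrf1, which guides DNA methylation to new strands, rose by 1.87 ± 0.10 SE, adjusted p = 1.03e-13. Pcna, with 192, 197 and 185 CPM after bleomycin and 171, 159 and 165 CPM after PBS, rose by only 0.17 ± 0.05 SE, adjusted p = 0.00658.

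The genes that open S phase rose with them. E2f1, an activating E2F factor, had 29, 25.9 and 27.2 CPM after bleomycin, against 11.7, 9.66 and 7.33 CPM after PBS (1.47 ± 0.13 SE, adjusted p = 9.89e-10). Ccne1, cyclin E1, had 5.44, 6.72 and 6.08 CPM after bleomycin, against 1.32, 1.96 and 1.52 CPM after PBS (1.87 ± 0.23 SE, adjusted p = 1.55e-07). The groups did not overlap in either gene.

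The largest changes were in mitosis genes. Ccnb1, cyclin B1, had 16.4, 17.1 and 14.7 CPM after bleomycin, against 2.77, 2.14 and 1.65 CPM after PBS, a 7.11-fold rise (2.83 ± 0.17 SE, adjusted p = 1.16e-12). Ccna2, cyclin A2, had 39.9, 39.4 and 42.6 CPM after bleomycin, against 8.71, 6.72 and 8.84 CPM after PBS (2.28 ± 0.10 SE, adjusted p = 6.58e-15). Cdk1, the kinase both cyclins bind, had 22.1, 21.1 and 22.5 CPM after bleomycin, against 4.82, 3.97 and 4.69 CPM after PBS (2.24 ± 0.13 SE, adjusted p = 2.5e-13). All 5 genes of this role rose, among them Foxm1, a transcription factor of mitosis genes, with 15.5, 16.7 and 20.3 CPM after bleomycin and 6.67, 8.62 and 5.68 CPM after PBS (1.27 ± 0.15 SE, adjusted p = 7.55e-08). All 8 mitotic kinase and passenger complex genes and all 3 genes around the anaphase promoting complex rose, with role medians of 2.0 and 1.82. Bub1b, a spindle checkpoint kinase, rose by 1.83 ± 0.10 SE, adjusted p = 9.89e-14.

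Top2a, the topoisomerase that untangles sister chromatids, had 118, 115 and 129 CPM after bleomycin, against 38.7, 35.8 and 36.4 CPM after PBS (1.66 ± 0.06 SE, adjusted p = 2.46e-16). Mki67, the coat protein of mitotic chromosomes detected as Ki-67, had 153, 177 and 188 CPM after bleomycin, against 79.8, 72.8 and 68.1 CPM after PBS (1.19 ± 0.07 SE, adjusted p = 7.35e-12). Of the 8 kinesin, spindle and centromere genes 6 rose, and 2 went the other way. Kif23, a kinesin of the dividing cell's midbody, fell to 27.5, 31.7 and 29.4 CPM after bleomycin, against 50.8, 49.1 and 50.03 CPM after PBS (-0.80 ± 0.07 SE, adjusted p = 1.62e-09). Cenpa, the histone H3 variant of centromeres, fell to 75, 70.9 and 67.2 CPM after bleomycin, against 106, 104 and 111 CPM after PBS (-0.64 ± 0.06 SE, adjusted p = 2.58e-09). Neither pair of groups overlapped.

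Markers of other cells moved with this comparison. The 7 mature neutrophil markers summed to 1506 to 1542 CPM after bleomycin and 6095 to 7344 CPM after PBS, the 7 granulocyte precursor markers to 89.6 to 108 CPM and 1364 to 1544 CPM, the 7 lung epithelium markers to 57.6 to 80.2 CPM and 3990.3 to 6013 CPM, and the 6 B cell markers to 157 to 193 CPM and 671 to 780.3 CPM, bleomycin before PBS in each pair. The 6 NK cell markers went the other way and all rose, with sums of 77.7 to 88.1 CPM after bleomycin and 45.4 to 49.2 CPM after PBS. No gene of these lists was at 0 in a whole group, and their part in the result was not tested.

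**Figure D3:**
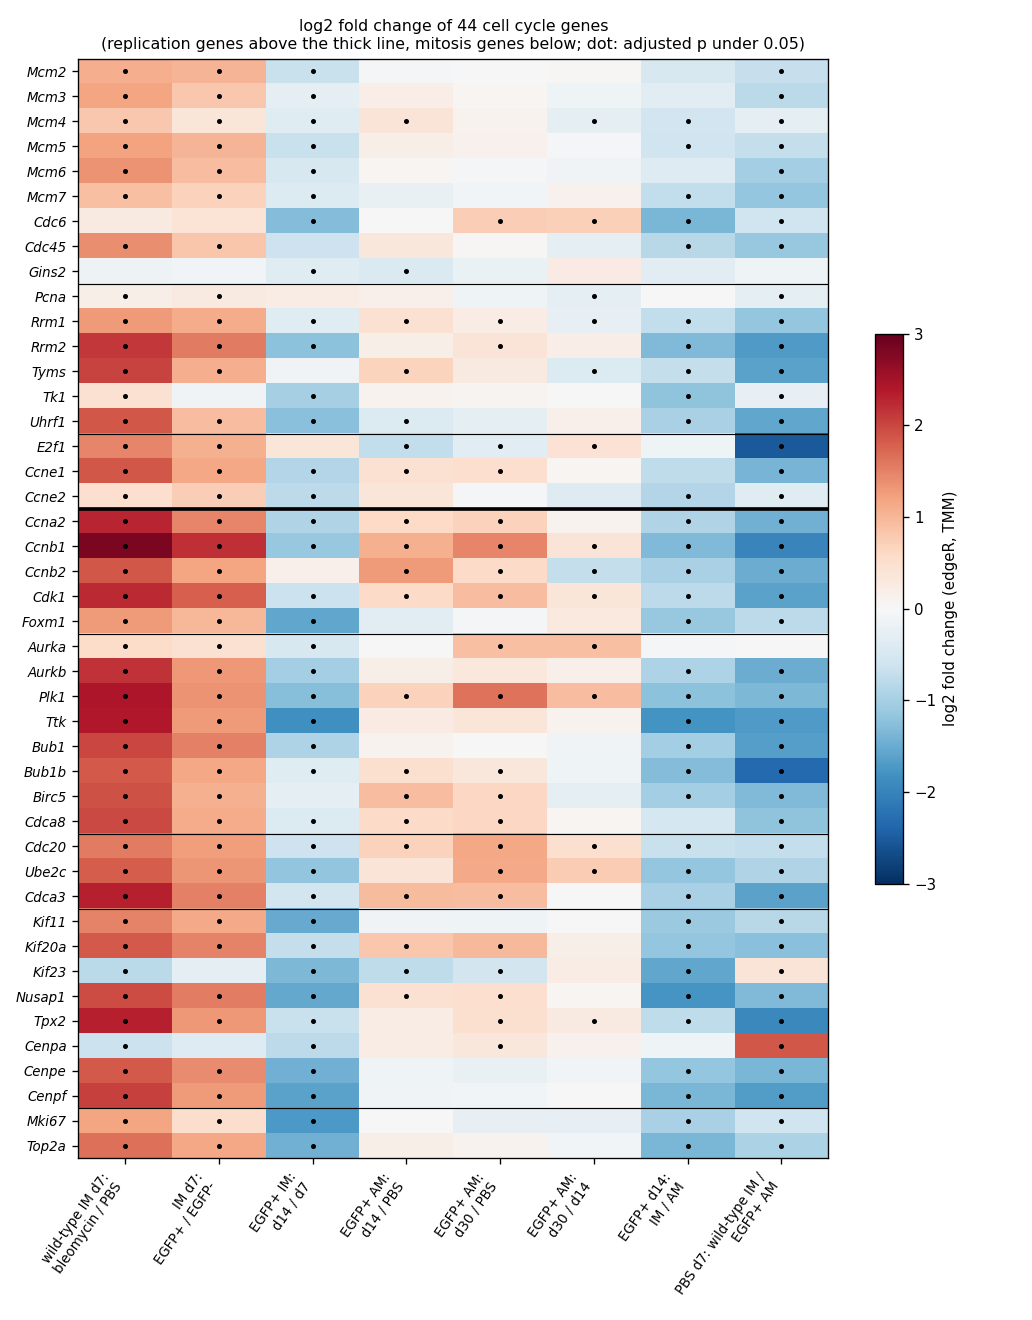
Log2 fold change of each of the 44 genes (rows, grouped by role) in the 8 comparisons (columns, named as the group on top over its reference); a dot marks an adjusted p under 0.05. Nearly all rows are red in the wild-type and EGFP columns, while Kif23 and Cenpa are blue in the wild-type column, and few replication rows carry a dot in the AM columns.

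Within reporter mice at day 7, 39 of the 44 genes were higher in EGFP+ than in EGFP- IMs and 0 were lower, where 17.2% of the 14967 genes tested were higher and 17.6% lower (together 34.8%). Replication genes differed by a median log2 fold change of 0.88 (15 of 18 higher) and mitosis genes by 1.27 (24 of 26 higher), against -0.02 over all genes tested. Ccnb1 again had the largest difference, with 12.8, 18.5 and 14.5 CPM in EGFP+ IMs, against 3.06, 3.08 and 3.45 CPM in EGFP- IMs (2.2 ± 0.18 SE, adjusted p = 3.34e-05). Ccna2 had 26.8, 35.1 and 31.2 CPM in EGFP+ IMs, against 11.6, 10.8 and 10.3 CPM in EGFP- IMs (1.46 ± 0.13 SE, adjusted p = 4.21e-05). In both genes EGFP+ replicate 2 was the highest library, as it was in both phase sums. Bub1b was higher by 1.15 ± 0.12 SE, adjusted p = 6.25e-05, and Cdk1 by 1.79 ± 0.25 SE, adjusted p = 0.00042.

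Of the replication genes, Rrm1 and Rrm2, the subunits of ribonucleotide reductase, and Mcm5 had the smallest p-values. Rrm2 had 21.8, 30.6 and 24.4 CPM in EGFP+ IMs, against 7.33, 9.17 and 8.5 CPM in EGFP- IMs (1.56 ± 0.18 SE, adjusted p = 0.000114). Mcm5 had 39.7, 48.7 and 38.3 CPM in EGFP+ IMs, against 19.9, 19.2 and 20.9 CPM in EGFP- IMs (1.03 ± 0.13 SE, adjusted p = 0.000178). E2f1 had 17.2, 25.7 and 23.5 CPM in EGFP+ IMs, against 10.7, 11.3 and 8.92 CPM in EGFP- IMs (1.06 ± 0.17 SE, adjusted p = 0.000702), and Ccne1 was higher by 1.16. None of these groups overlapped. Pcna was called (0.27 ± 0.10 SE, adjusted p = 0.0465), but missed the test with any 1 of the 6 libraries left out (0.22 to 0.31).

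Mki67 differed less than most mitosis genes, with 159.8, 189 and 181 CPM in EGFP+ IMs, against 130.2, 115 and 112 CPM in EGFP- IMs (0.52 ± 0.10 SE, adjusted p = 0.00294). The EGFP- IMs held more Mki67 than wild-type PBS IMs, whose 3 libraries had 79.8, 72.8 and 68.1 CPM, while the Top2a ranges of these groups overlapped, with 40.4, 35.1 and 29.3 CPM in EGFP- IMs and 38.7, 35.8 and 36.4 CPM in wild-type PBS IMs. The 5 genes with no call were Cdc6 (0.40 ± 0.26 SE, adjusted p = 0.248), Gins2 (-0.07 ± 0.10 SE, adjusted p = 0.602), Tk1, thymidine kinase (-0.11 ± 0.14 SE, adjusted p = 0.594), Kif23 (-0.26 ± 0.19 SE, adjusted p = 0.302) and Cenpa (-0.39 ± 0.17 SE, adjusted p = 0.0963). Neutrophil markers summed to 1979 to 2710.3 CPM in EGFP+ IMs and 4518 to 5986 CPM in EGFP- IMs with none of the 7 at 0, and their part in the result was not tested.

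At day 14 no gene of the 44 was higher in EGFP+ IMs than at day 7, and 38 were lower, where 25.3% of the 14967 genes tested were higher and 26.9% lower (together 52.2%). The day 14 and day 7 libraries stand in different deposited tables, so that table and day cannot be told apart. Replication genes differed by a median log2 fold change of -0.55 (14 of 18 lower) and mitosis genes by -0.97 (24 of 26 lower), against 0.00 over all genes tested. Mki67 had 51.3, 49.7 and 37.4 CPM at day 14, against 159.8, 189 and 181 CPM at day 7 (-1.72 ± 0.11 SE, adjusted p = 3.41e-07). Nusap1, a spindle microtubule protein, had 5.29, 3.83 and 4.3 CPM at day 14, against 13, 17.2 and 15.3 CPM at day 7 (-1.54 ± 0.17 SE, adjusted p = 2.57e-05). Foxm1 had 3.72, 4.21 and 2.52 CPM at day 14, against 10.2, 12.8 and 12.8 CPM at day 7 (-1.56 ± 0.19 SE, adjusted p = 4.54e-05). In Mki67 and Foxm1 every day 14 library lay below every day 7 library, EGFP- IMs included, and Nusap1 overlapped the EGFP- IMs.

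All 8 kinesin, spindle and centromere genes were lower at day 14, with a role median of -1.40, and so was Top2a (-1.45 ± 0.17 SE, adjusted p = 4.94e-05). The cyclins moved unequally. Ccnb1 was lower by -1.14 ± 0.17 SE, adjusted p = 0.000187, whereas Ccnb2, cyclin B2, had 20.2, 15.2 and 14.6 CPM at day 14 and 14.3, 20.6 and 17.2 CPM at day 7 and did not pass the test (0.16 ± 0.17 SE, adjusted p = 0.462). Cdk1, whose gene model differs between the tables, was lower by -0.65 ± 0.24 SE, adjusted p = 0.0398, and leaving out 1 library at a time moved that value between -0.93 and -0.36, with 3 of the 6 fits past the test; it was -0.50 without day 14 library 1 (adjusted p = 0.0875), -0.60 without day 14 library 2 (adjusted p = 0.114) and -0.36 without EGFP+ day 7 library 2 (adjusted p = 0.208). Among replication genes, Uhrf1 (-1.26 ± 0.17 SE, adjusted p = 0.000118), Rrm2 (-1.24 ± 0.18 SE, adjusted p = 0.000156) and Tk1 (-0.99 ± 0.15 SE, adjusted p = 0.000199) had the smallest p-values, and the 6 MCM genes were lower by 0.28 to 0.67. Pcna, with 184, 174 and 193 CPM at day 14 and 174, 197 and 185 CPM at day 7, was not called (0.21 ± 0.10 SE, adjusted p = 0.0781), nor was E2f1, with 23.4, 22 and 27.1 CPM at day 14 and 17.2, 25.7 and 23.5 CPM at day 7 (0.36 ± 0.16 SE, adjusted p = 0.0795). E2f1 passed the test as higher at day 14 without day 14 library 1 (0.41, adjusted p = 0.0386) or EGFP+ day 7 library 2 (0.48, adjusted p = 0.0447), and Pcna without day 14 library 1 (0.25, adjusted p = 0.027). With 1 library left out at a time, 27 to 38 genes were lower and 0 to 2 higher.

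Markers of other cells were also lower at day 14. Of the mature neutrophil markers tested 7 of 7 were lower, and the 7 listed summed to 131 to 197 CPM at day 14 and 1979 to 2710.3 CPM at day 7. Of the dendritic cell markers 7 of 7 were lower, with sums of 20.3 to 37.1 CPM at day 14 and 116 to 134 CPM at day 7. Also lower were 4 of 4 granulocyte precursor markers tested (sums of 2.07 to 5.23 CPM at day 14, where Elane and Mpo were at 0, and 36 to 49.8 CPM at day 7), 5 of 6 of lung epithelium (4.29 to 6.46 and 33.8 to 141 CPM), 4 of 5 of fibroblasts (3.06 to 3.86 and 8.55 to 19.2 CPM), 4 of 6 of B cells (12.3 to 27.9 and 33.4 to 94.2 CPM) and 4 of 6 of NK cells (2.57 to 14.1 and 18.5 to 30.3 CPM), day 14 before day 7 in each pair. Their part in the result was not tested.

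In AMs the calls fell in both phases and in both directions. At day 14 after bleomycin, 16 of the 44 genes were higher than after PBS and 4 lower, where 27.3% of the 14706 genes tested were higher and 27.6% lower (together 54.9%). Of the mitosis genes 12 of 26 were higher and 1 lower, with a median log2 fold change of 0.32. Of the replication genes 4 of 18 were higher and 3 lower, with a median of 0.17, and both counts lay below the shares over all genes. The median over all genes tested was -0.01. PBS AMs are in another table than AMs after bleomycin, so table and treatment cannot be told apart, and the PBS libraries were taken at day 7. With total-count scaling 7 of the 44 genes were lower.

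Markers of other cells were lower in AMs at day 14 than after PBS. The B cell markers, of which 6 of 6 were lower, summed to 6.13 to 8.03 CPM at day 14 and 109 to 142 CPM after PBS. Also lower were 4 of 4 granulocyte precursor markers tested (sums of 0.0647 to 0.809 CPM at day 14, where Ctsg and Camp were at 0, and 12.2 to 25.8 CPM after PBS), 5 of 6 of lung epithelium (21.4 to 22 and 296 to 307 CPM), 5 of 7 of dendritic cells (19 to 25.1 and 49.5 to 68.7 CPM) and 4 of 6 of mature neutrophils (91.4 to 111 CPM, with Ly6g at 0, and 122 to 181 CPM), day 14 before PBS in each pair, while 1 neutrophil marker was higher. Their part in the result was not tested.

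At day 30, 20 genes were higher than in PBS AMs and 2 lower, where 24.8% of genes tested were higher and 23.1% lower (together 47.9%). Of the higher genes, 16 were mitosis genes and 4 replication genes, with medians of 0.50 and 0.05 against 0.02 over all genes tested. The 2 lower genes became 6 with total-count scaling, 5 with these 2 groups alone, 4 with no filter on low counts and 1 with all 24 libraries in the fit, without day 30 library 1 or without PBS library 3. Both comparisons use the same 3 PBS libraries. Markers of some other cells were higher at day 30 than after PBS: 8 of 8 of T cells (sums of 106 to 116 CPM at day 30 and 40.8 to 55.5 CPM after PBS), 6 of 6 tested of mature neutrophils (509 to 590.3 and 122 to 181 CPM), 5 of 5 of fibroblasts (69.4 to 76.7 and 7.09 to 10.1 CPM) and 4 of 5 of NK cells (21.9 to 28 and 12.5 to 16 CPM), day 30 before PBS in each pair. The erythroid sum was also higher (18.7 to 27.4 and 1.13 to 2.52 CPM). Sums of B cell markers (58.1 to 80.8 and 109 to 142 CPM) and lung epithelium markers (99.1 to 148 and 296 to 307 CPM) were lower at day 30, in the same order. The part of all these markers in the result was not tested.

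Ccnb1 had 8.9, 9.56 and 7.52 CPM in AMs after PBS, 17.7, 15.3 and 15.2 CPM at day 14 and 24.8, 20.2 and 21 CPM at day 30 after bleomycin. The 3 groups did not overlap, and Ccnb1 rose by 1.07 ± 0.13 SE, adjusted p = 4.46e-06 at day 14 and by 1.45 ± 0.13 SE, adjusted p = 1.1e-07 at day 30 over PBS. Plk1, the kinase that matures centrosomes and releases cohesin, had 3.99, 6.43 and 6.2 CPM after PBS, then 8.09, 6.69 and 8.74 CPM on day 14 and 15.1, 16.5 and 15.7 CPM on day 30. It rose by 0.70 ± 0.18 SE, adjusted p = 0.00407 at day 14 and by 1.63 ± 0.18 SE, adjusted p = 8.73e-07 at day 30 over PBS, and its day 30 level was the highest of all 8 groups. Cdk1 had 14.2, 13.9 and 12.9 CPM after PBS, then 18.4, 16.3 and 18.9 CPM on day 14 and 24, 25.5 and 22.8 CPM on day 30, a rise of 0.57 at day 14 and of 0.93 at day 30. The gene model of Cdk1 differs between the tables that hold PBS AMs and bleomycin AMs, and its part in this rise was not tested.

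Cdc20, the activator of the anaphase promoting complex, and Ube2c, its ubiquitin-conjugating enzyme, were higher at day 30 than after PBS by 1.16 ± 0.14 SE, adjusted p = 2.28e-06 and 1.14 ± 0.18 SE, adjusted p = 4.47e-05. Kif20a, a kinesin of the central spindle, was higher by 0.81 at day 14 and 0.98 at day 30, though its gene model differs between the tables. Ccna2 was higher by 0.59 ± 0.12 SE, adjusted p = 0.000596 at day 14 and by 0.70 ± 0.12 SE, adjusted p = 0.000142 at day 30. The late genes did not all move: Mki67 was not called at day 14 (0.01 ± 0.12 SE, adjusted p = 0.973) or day 30 (-0.23 ± 0.12 SE, adjusted p = 0.106), Top2a was not called at day 14 (0.18 ± 0.10 SE, adjusted p = 0.119) or day 30 (0.11 ± 0.10 SE, adjusted p = 0.377), and Foxm1 was not called at either time, at -0.35 and -0.06.

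Of the MCM genes only Mcm4, at day 14 (0.38 ± 0.08 SE, adjusted p = 0.000646), passed the test against PBS at either day, and Mcm2 and Mcm5 differed from PBS by -0.05 and 0.18 at day 14 and by -0.01 and 0.13 at day 30. Rrm1 rose at both days, by 0.45 ± 0.08 SE, adjusted p = 0.000133 and 0.21 ± 0.08 SE, adjusted p = 0.0337, and Ccne1 by 0.45 ± 0.18 SE, adjusted p = 0.0484 and 0.51 ± 0.18 SE, adjusted p = 0.0285. Ccne1 did not pass the test at day 14 with any 1 of the 6 libraries left out (0.38 to 0.51), nor at day 30 without day 30 library 3 (0.44) or PBS library 1 (0.44) or 2 (0.51). Rrm2 passed the test at day 30 (0.38 ± 0.12 SE, adjusted p = 0.0127) and not at day 14 (0.18 ± 0.12 SE, adjusted p = 0.204), and it missed the test at day 30 without day 30 library 2 (0.31) or PBS library 3 (0.35). Tyms, thymidylate synthase, rose at day 14 (0.68 ± 0.13 SE, adjusted p = 0.000348). E2f1 went the other way: it had 53.7, 54.1 and 56.6 CPM after PBS, then 26.4, 26.5 and 33 CPM on day 14 and 36.1, 44 and 41.4 CPM on day 30, and fell by 0.75 at day 14 (adjusted p = 1.89e-05) and by 0.32 at day 30 (adjusted p = 0.0176). Kif23 was also lower at both days, by -0.76 ± 0.14 SE, adjusted p = 0.000222 and -0.54 ± 0.14 SE, adjusted p = 0.00379. At day 30 the E2f1 value missed the test without day 30 library 1 (-0.24) or PBS library 3 (-0.30). Top2a passed at day 14 without day 14 library 1 (0.30), and Pcna without day 14 library 2 (0.20). Gins2 (-0.44 ± 0.11 SE, adjusted p = 0.00248) and Uhrf1 (-0.41 ± 0.14 SE, adjusted p = 0.0221) were lower at day 14.

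Day 30 and day 14 AMs stand in the same table. Between them 9 of the 44 genes were higher at day 30 and 5 lower, where 19.6% of the 14706 genes tested were higher and 18.7% lower (together 38.4%). The count of higher genes thus lay near the share over all genes, and the count of lower genes below it. Of the 9 higher genes 7 act in mitosis, namely Plk1 (0.93 ± 0.18 SE, adjusted p = 0.000537), Aurka, the centrosome kinase (0.91 ± 0.20 SE, adjusted p = 0.00177), Ube2c (0.76 ± 0.18 SE, adjusted p = 0.00286), Cdc20 (0.47 ± 0.14 SE, adjusted p = 0.0115), Ccnb1 (0.38 ± 0.13 SE, adjusted p = 0.0282), Cdk1 (0.36 ± 0.11 SE, adjusted p = 0.0201) and Tpx2, which activates Aurora A (0.27 ± 0.10 SE, adjusted p = 0.0368). Cdc6 (0.72 ± 0.27 SE, adjusted p = 0.0456), whose libraries of the days overlapped, and E2f1 (0.42 ± 0.11 SE, adjusted p = 0.00574) were the others. Of the 5 lower genes 4 act in replication, namely Pcna (-0.30 ± 0.08 SE, adjusted p = 0.00865), Mcm4 (-0.29 ± 0.08 SE, adjusted p = 0.0102), Tyms (-0.40 ± 0.13 SE, adjusted p = 0.0247) and Rrm1 (-0.24 ± 0.08 SE, adjusted p = 0.0257), and the other was Ccnb2 (-0.70 ± 0.16 SE, adjusted p = 0.00253). Aurka had 10.2, 11.3 and 11 CPM at day 30, against 4.65, 4.31 and 7.38 CPM at day 14, with no overlap. Without day 14 library 2, 4 genes were called higher. The 5 lower genes became 3 with upper quartile scaling, without day 30 library 1 or without day 30 library 3, and 2 with total-count scaling. Ccnb1 missed the test without day 30 library 1 (0.29) or day 14 library 2 (0.32) or 3 (0.36), and Cdk1 without day 30 library 2 (0.31) or day 14 library 2 (0.27). The day 30 libraries also held more markers of other cells than the day 14 libraries: fibroblast markers (6 genes) summed to 69.4 to 76.7 CPM at day 30 and 3.05 to 6.81 CPM at day 14, T cell markers (8 genes) to 106 to 116 CPM at day 30 and 20.2 to 43.2 CPM at day 14, and neutrophil markers (7 genes) to 509 to 590.3 CPM at day 30 and 91.4 to 111 CPM at day 14, where Ly6g was at 0. Their part in the result was not tested.

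Set against AMs, EGFP+ IMs at day 14 and wild-type IMs after PBS held lower levels of most of the 44 genes. At day 14 after bleomycin, 34 of the 44 genes were lower in EGFP+ IMs than in EGFP+ AMs and none was higher, where 10.2% of the 13460 genes tested were lower and 10.8% higher (together 21%). The median log2 fold change was -0.72 for replication genes (11 of 18 lower) and -1.07 for mitosis genes (23 of 26 lower), against 0.01 over all genes tested. Nusap1 had 5.29, 3.83 and 4.3 CPM in IMs, against 13.8, 15.7 and 19.7 CPM in AMs (-1.77 ± 0.21 SE, adjusted p = 0.000196). Bub1b had 22.6, 22.6 and 25.7 CPM in IMs, against 57.3, 66.2 and 65.5 CPM in AMs (-1.29 ± 0.14 SE, adjusted p = 0.000128). Neither gene's groups overlapped. Rrm2 was lower in IMs by -1.33 ± 0.19 SE, adjusted p = 0.000784 and Tk1 by -1.22 ± 0.18 SE, adjusted p = 0.000785, while Pcna (0.01 ± 0.13 SE, adjusted p = 0.977), E2f1 (-0.13 ± 0.17 SE, adjusted p = 0.641), Aurka (-0.03 ± 0.27 SE, adjusted p = 0.954) and Cenpa (-0.13 ± 0.21 SE, adjusted p = 0.718) were not called. With 1 library left out at a time, 23 to 37 genes were lower and none higher. Cdk1 (-0.79 ± 0.21 SE, adjusted p = 0.0237) missed the test without IM library 2 (-0.73) or AM library 1 (-0.78) or 3 (-0.73), and Mcm5 (-0.60 ± 0.15 SE, adjusted p = 0.0173) without IM library 2 (-0.50) or AM library 3 (-0.51). Of the neutrophil markers 3 of 6 tested were higher in IMs, with sums of 131 to 197 CPM in day 14 IMs, against 91.4 to 111 CPM in day 14 AMs, and of the B cell markers 2 of 6, with 12.3 to 27.9 CPM in day 14 IMs, against 6.13 to 8.03 CPM in day 14 AMs; their part in the result was not tested.

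After PBS, 40 genes were lower in wild-type IMs than in EGFP+ AMs of reporter mice and 2 higher, where 39.7% of the 15828 genes tested were lower and 39.2% higher (together 78.9%). Gate, mouse line and EGFP sort all differ here and cannot be told apart. E2f1 had the largest difference, with 11.7, 9.66 and 7.33 CPM in IMs, against 53.7, 54.1 and 56.6 CPM in AMs (-2.52 ± 0.11 SE, adjusted p = 8.93e-13). Bub1b was lower in IMs by -2.34 ± 0.09 SE, adjusted p = 3.03e-14, and Ccnb1 by -1.99 ± 0.20 SE, adjusted p = 3.19e-08. The 2 higher genes were Cenpa, with 106, 104 and 111 CPM in IMs, against 27.3, 25.7 and 35.2 CPM in AMs (1.87 ± 0.09 SE, adjusted p = 1.66e-10), and Kif23 (0.39 ± 0.07 SE, adjusted p = 2.85e-05). Gins2 and Aurka were not called, at -0.13 and 0.02. Markers of other cells were higher in these IMs: 7 of 7 of mature neutrophils (sums of 6095 to 7344 CPM in PBS IMs, against 122 to 181 CPM in PBS AMs), 7 of 7 of granulocyte precursors (1364 to 1544 and 12.2 to 25.8 CPM), 6 of 7 of lung epithelium (3990.3 to 6013 and 296 to 307 CPM), 6 of 6 of B cells (671 to 780.3 and 109 to 142 CPM), 6 of 7 of dendritic cells (309 to 323 and 49.5 to 68.7 CPM), 8 of 8 of T cells (167 to 176 and 40.8 to 55.5 CPM) and 6 of 6 of fibroblasts (144 to 191 and 7.09 to 10.1 CPM), IMs before AMs in each pair. None of these genes was at 0 in either group, and their part in the result was not tested.

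Set side by side, the median log2 fold change of replication genes minus that of mitosis genes was -0.70 in wild-type IMs after bleomycin and -0.39 between EGFP+ and EGFP- IMs, where both phases were higher and mitosis genes more so. It was 0.42 between day 14 and day 7 IMs and 0.35 between IMs and AMs at day 14, where both phases were lower and mitosis genes more so. Between IMs and AMs after PBS it was 0.42, but there the order depended on the measure: the summed CPM in IMs was 0.605 times that in AMs for replication genes and 0.687 times for mitosis genes, and the mean log2(CPM + 1) of the phases differed by 0.0875 between them. In AMs it was -0.45 at day 30 against PBS. At day 14 against PBS it was -0.15, and became -0.076 over genes with unchanged models, -0.37 over core genes (licensing and helicase against core mitosis genes) and -0.23 without PBS library 3. Between the days it was -0.13, and became -0.034 without day 14 library 3 and -0.061 without day 30 library 1. In each of the 8 comparisons the mitosis median log2 fold change lay farther from 0 than the replication median, and between AMs at day 30 and day 14 they differed in sign, at -0.03 for replication and 0.10 for mitosis genes. Several comparisons share libraries, and these differences carry no test.

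Most of the 44 genes kept to the same order of libraries. Over the 24 libraries, which share groups and tables, the correlation of each gene's log2(CPM + 1) with the mean of the other 43 had a median of 0.91 and was over 0.8 for 33 genes. Rrm2 (0.99) and Nusap1 (0.98) followed the others most closely. Cenpa (-0.24), Kif23 (0.18) and Gins2 (0.30) followed them least, then Pcna (0.59), Mki67 (0.60) and Tk1 (0.61). Wild-type bleomycin IMs had the highest group mean for 10 replication and 12 mitosis genes, and AMs at day 30 for 8 mitosis genes. EGFP+ IMs at day 14 had the lowest mean for 6 replication and 12 mitosis genes, and wild-type PBS IMs for 7 and 12.

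Cenpa (chr5:30666777-30674830, GRCm38, plus strand) and Kif23 (chr9:61915905-61946774, minus strand) were the 2 members whose highest level was in wild-type PBS IMs. Cenpa had 21.4, 21.3 and 33 CPM in EGFP+ IMs at day 14, 46.3, 55.5 and 51.2 CPM in EGFP+ IMs at day 7 and 68.8, 64 and 61.1 CPM in EGFP- IMs at day 7. Kif23 had 6.86, 4.09 and 7.56 CPM in EGFP+ IMs at day 14, 15.7, 20.8 and 19 CPM in EGFP+ IMs at day 7 and 21.8, 23.6 and 18.7 CPM in EGFP- IMs at day 7. Both fell at day 14 beyond the test, Cenpa by -0.78 ± 0.17 SE, adjusted p = 0.00331 and Kif23 by -1.36 ± 0.20 SE, adjusted p = 0.000186. The wild-type PBS IMs that were highest in both genes also held the highest sums of neutrophil, granulocyte precursor, B cell and epithelium markers, whose part in these levels was not tested.

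Neither Cenpa nor Kif23 overlaps another gene expressed at 1 CPM or more. Gins2, in contrast, overlaps Gse1 on the opposite strand, whose mean reached 62.3 CPM. In all, 11 of the 44 genes overlap such a gene, among them Ccna2, Cdc20, Mcm7 and Kif20a. These are overlaps of whole gene spans, introns included, and whether exons overlap was not read. The strand setting of the counting is not given in the sources used here. Whether the counts of these genes hold reads of the neighbour was not tested.

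E2f1 (chr2:154559407-154569892, minus strand) had its highest level in PBS AMs and its lowest in wild-type PBS IMs and EGFP- IMs. In EGFP+ IMs it was not called between days 14 and 7, while Foxm1, with which it shares the role of a cell cycle transcription factor, was lower at day 14. The order of group means for E2f1 was PBS AMs, day 30 AMs, day 14 AMs, wild-type bleomycin IMs, EGFP+ IMs at day 14, EGFP+ IMs at day 7, EGFP- IMs and wild-type PBS IMs, and the ranges of the neighbours from day 14 AMs to EGFP+ IMs at day 7 overlapped in turn.

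**Figure D4:**
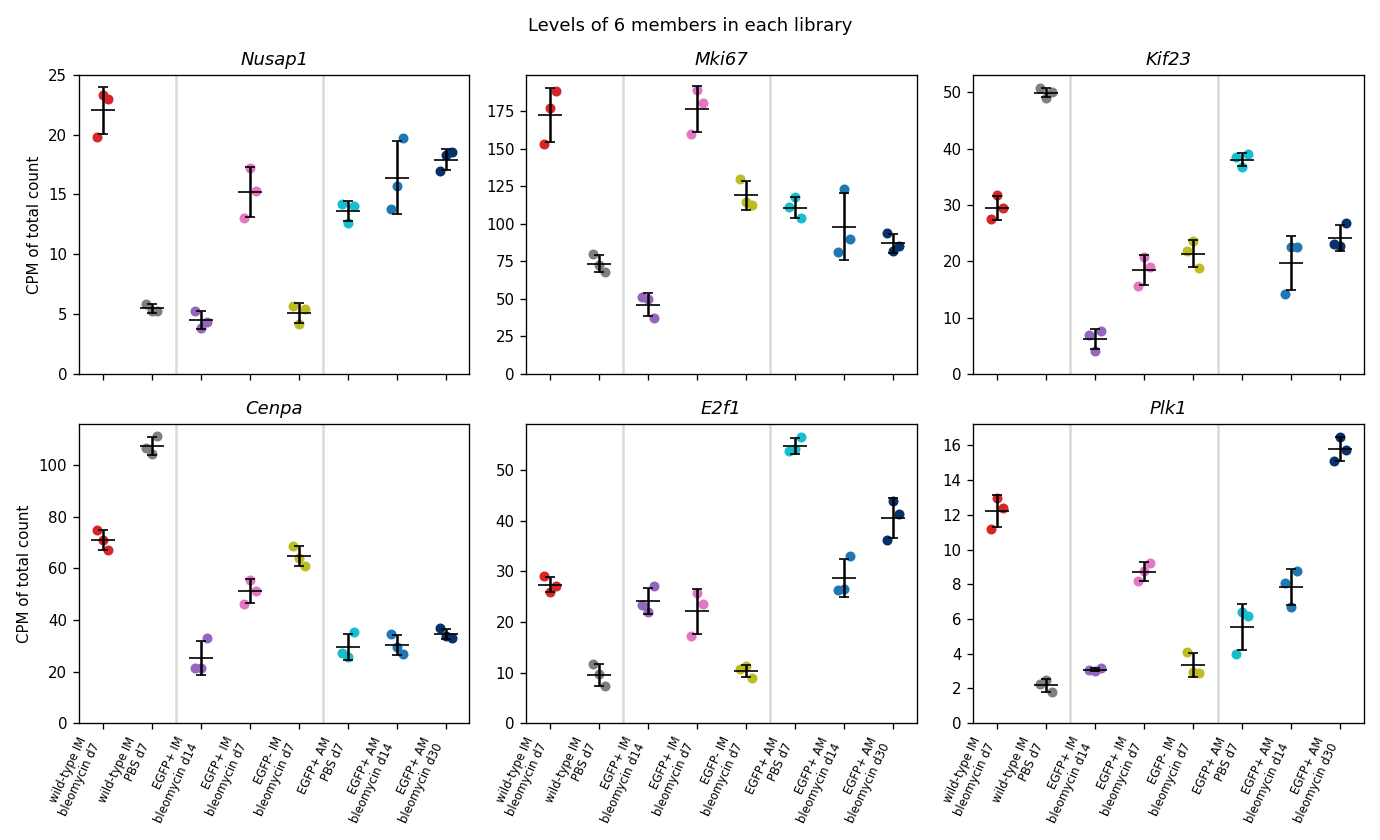
CPM of 6 members in each library; points are libraries, bars the mean and SD of 3. Nusap1 follows the pattern of most members, Kif23 and Cenpa are highest in wild-type PBS IMs (Cenpa at 104 to 111 CPM), E2f1 is highest in PBS AMs and Plk1 in day 30 AMs.

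Other genes of the cell cycle, from lists of related genes, are given by their counts. Over all genes tested, 35.6% rose and 34.5% fell in wild-type IMs after bleomycin. For EGFP+ against EGFP- IMs 17.2% were higher and 17.6% lower, and for IMs at day 14 against day 7 25.3% were higher and 26.9% lower. Of 22 further kinetochore, condensin and cytokinesis genes, 20 rose and 1 fell in wild-type IMs after bleomycin, 20 were higher and 1 lower in EGFP+ than EGFP- IMs, and 17 were lower and 2 higher in IMs at day 14 than at day 7. Espl1, separase, rose by 2.22 ± 0.10 SE, adjusted p = 4.22e-15 in wild-type IMs, and Prc1, which bundles the central spindle, was higher by 1.55 ± 0.17 SE, adjusted p = 8.53e-05 in EGFP+ IMs. Of 23 further origin and replisome genes, 17 rose and 3 fell, 13 were higher and none lower, and 14 were lower and 1 higher in the same 3 comparisons. Dnmt1, the maintenance DNA methyltransferase, had 102 ± 9.06 CPM after bleomycin and 31.1 ± 0.807 CPM after PBS in wild-type IMs (mean ± SD, n = 3 each; 1.66 ± 0.07 SE, adjusted p = 1.22e-15). Of 11 pocket protein, E2F and MuvB genes, 8 rose and 2 fell in wild-type IMs, among them E2f8, a repressor E2F (1.77 ± 0.14 SE, adjusted p = 7.46e-11), and Mybl2, a partner of MuvB (2.12 ± 0.17 SE, adjusted p = 1.48e-10). In AMs at day 30 against PBS the kinetochore list had 8 higher and 2 lower of 22, and the replisome list 4 higher and 3 lower of 23. Over all genes tested 24.8% were higher there and 23.1% lower, and both replisome counts lay below these shares.

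The G1 cyclins and their kinases did not move as a block. Ccnd2, cyclin D2, was far lower in AMs after bleomycin: it had 343 ± 13.9 CPM without bleomycin, 33.4 ± 6.24 CPM by day 14 and 43.9 ± 0.709 CPM by day 30, a log2 fold change of -3.18 ± 0.11 SE, adjusted p = 2.53e-13 at day 14. Cdk6, a partner of D cyclins, had 145 ± 10.6 CPM after PBS, then 33.8 ± 6.95 CPM on day 14 and 38.1 ± 1.76 CPM on day 30 (-1.93 ± 0.11 SE, adjusted p = 2.33e-10 at day 14). Cdk4, the other partner, was higher at both days, by 0.61 and 0.47. In IMs at day 14 against day 7 Ccnd2 had 8.6 ± 1.45 CPM and 53.9 ± 3.04 CPM (-2.41 ± 0.13 SE, adjusted p = 8.99e-08). These 3 comparisons cross the tables. Within 1 table, Ccnd2 had 8.6 ± 1.45 CPM in IMs and 33.4 ± 6.24 CPM in AMs at day 14 (-1.83 ± 0.20 SE, adjusted p = 0.000128), and Cdk4 rose in wild-type IMs after bleomycin (0.84 ± 0.06 SE, adjusted p = 5.29e-11) as Cdk6 did (0.70 ± 0.08 SE, adjusted p = 2.61e-07).

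Inhibitors of cyclin-dependent kinases differed by gene. Cdkn1b, which encodes p27, fell to 109 ± 5.74 CPM in wild-type IMs after bleomycin, against 205 ± 8.04 CPM after PBS (-0.96 ± 0.05 SE, adjusted p = 3.06e-13), and was lower in EGFP+ than EGFP- IMs (-0.62 ± 0.09 SE, adjusted p = 0.000373) and at day 14 than at day 7 (-0.88 ± 0.09 SE, adjusted p = 1.29e-05). Cdkn1a, which encodes p21, rose with the cell cycle genes in wild-type IMs, to 673 ± 7.8 CPM after bleomycin, against 415 ± 17 CPM after PBS (0.65 ± 0.05 SE, adjusted p = 3.81e-11). In AMs Cdkn1a had 495 ± 6.21 CPM after PBS, then 586 ± 22.7 CPM on day 14 and 247 ± 10.7 CPM on day 30, and was lower at day 30 than at day 14 (-1.32 ± 0.07 SE, adjusted p = 7.53e-10).

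Because replication and mitosis genes moved by different sizes, the promoters of the members were read for the motifs that textbooks tie to each phase. RefSeq promoter windows on GRCm38.p6, 250 bases before to 50 after a start, were found for 36 of the 44 genes, 15 replication genes with 17 windows and 21 mitosis genes with 1 each. The E2F-type site was searched as TTTCCCGC, TTTCGCGC, TTTGCCGC or TTTGGCGC, the CHR-type element, the cell cycle genes homology region that the DREAM and MuvB complexes bind, as TTTGAA, and the CCAAT box, bound by NF-Y, as CCAAT, all on both strands. Upstream stretches of 6 genes are shown because they hold the letters that set the phases apart, each 5′ to 3′ on its gene's strand and ending at the base before the RefSeq start, with matches of any of these motifs in capitals, overlapping matches merged.
Mcm5 (chr8:75109349-75109508, plus strand): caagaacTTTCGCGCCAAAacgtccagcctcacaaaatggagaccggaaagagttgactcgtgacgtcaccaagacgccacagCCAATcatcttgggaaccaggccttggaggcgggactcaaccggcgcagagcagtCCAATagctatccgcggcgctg
Mcm6 (chr1:128359706-128359865, minus strand): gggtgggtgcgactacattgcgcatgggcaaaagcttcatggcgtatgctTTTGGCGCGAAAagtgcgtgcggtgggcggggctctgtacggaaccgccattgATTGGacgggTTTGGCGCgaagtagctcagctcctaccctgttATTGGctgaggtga
Cdc20 (chr4:118437344-118437503, minus strand): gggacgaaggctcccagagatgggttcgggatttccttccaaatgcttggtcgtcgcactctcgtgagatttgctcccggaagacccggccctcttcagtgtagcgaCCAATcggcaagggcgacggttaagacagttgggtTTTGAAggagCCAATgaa
Cdk1 (chr10:69352913-69353072, minus strand): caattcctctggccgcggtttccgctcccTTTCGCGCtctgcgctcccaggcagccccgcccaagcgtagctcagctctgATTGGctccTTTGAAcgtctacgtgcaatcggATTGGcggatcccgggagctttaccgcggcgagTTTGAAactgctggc
Top2a (chr11:99024190-99024349, minus strand): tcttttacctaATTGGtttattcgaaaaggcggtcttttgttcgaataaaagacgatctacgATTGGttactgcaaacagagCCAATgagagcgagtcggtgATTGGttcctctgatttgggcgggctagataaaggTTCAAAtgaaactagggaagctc
Kif11 (chr19:37376222-37376381, plus strand): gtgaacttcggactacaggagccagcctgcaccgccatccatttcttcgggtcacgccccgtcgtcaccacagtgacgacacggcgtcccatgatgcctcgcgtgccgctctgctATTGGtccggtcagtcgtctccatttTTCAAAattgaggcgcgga
The replication genes Mcm5 and Mcm6 show E2F-type letters, with 2 overlapping matches merged in each and a further match in Mcm6, and CCAAT boxes, written ATTGG where they lie on the reverse strand. The mitosis genes Cdc20, Cdk1, Top2a and Kif11, a kinesin of the spindle, show the CHR-type letters, on the reverse strand as TTCAAA in Top2a and Kif11, with CCAAT boxes upstream or beside them. Cdk1 holds both kinds.

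Over all windows, the E2F-type site was in 6 of 17 replication windows (35.3%), in 1 of 21 mitosis windows (4.76%) and in 2.26% of all 32851 windows of that length. The CHR-type element was in 16 mitosis windows (76.2%), in 2 replication windows (11.8%) and in 17.9% of all windows. Each of the 16 mitosis windows with the CHR-type element also held a CCAAT box, a pair present in 6.95% of all windows. The CCAAT box alone was in 70.6% of replication, 90.5% of mitosis and 37.4% of all windows. Kif23 and Cenpa, the mitosis genes that fell in wild-type IMs, hold CHR-type letters just after the start, as most mitosis genes that rose do within their windows. These are matches of letters, not measured binding sites, and their part in the changes of level was not tested.

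**Figure D5:**
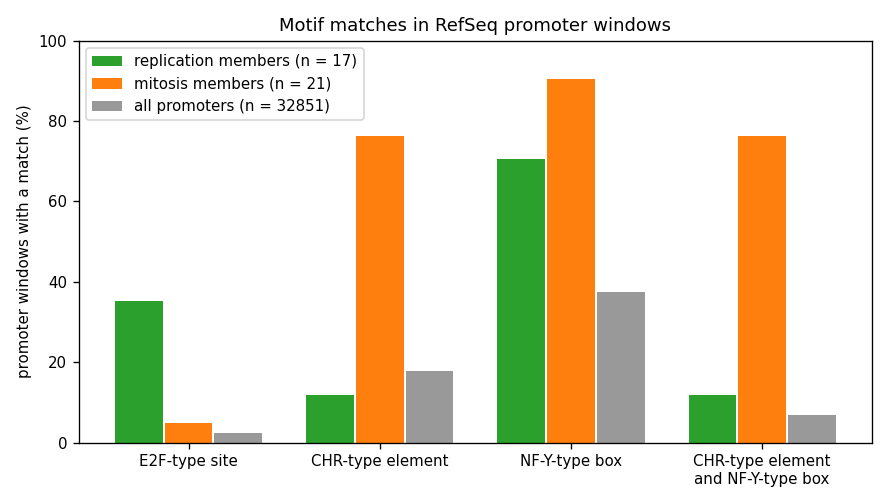
Share of RefSeq promoter windows with a match to each motif, for replication members, mitosis members and all promoters; bars start at 0. The CHR-type element is in 76.2% of mitosis windows, 11.8% of replication windows and 17.9% of all windows.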

How the data were processed

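The tools named in the submitters' processing notes are FastQC 0.11.5, Trimmomatic 0.38, HISAT2 2.1.0, SAMtools and featureCounts 1.6.3, with the build GRCm38. What the authors deposited are unnormalized counts of reads for each gene, in 2 tables, of 49585 genes and 15 libraries and of 55487 genes and 9 libraries. Another 3 columns of counts match no sample here and were left out. Gene IDs joined the tables, and the 49022 shared genes held at least 99.486% of each library's counts. Models of 42 of the 44 genes have the same coordinates in both tables; those of Cdk1 and Kif20a differ.

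CPM was computed from the full library total. Tests used edgeR 4.0.16 in R 4.3.3 (TMM, filterByExpr, robust quasi-likelihood F test, group as the only term), fitted separately to the wild-type IMs (6 libraries), the 9 reporter IM libraries, the 9 AM libraries, the 6 day 14 libraries and the 6 PBS libraries. The fit was tested on simulated data with known changes. The SE of a log2 fold change is its absolute size over the square root of F. No 2 replicates were alike within sampling noise. Levels per kb used the exon length of GENCODE M21, and promoter sequences are from RefSeq, matched by symbol.

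The members, lists and comparisons were chosen with earlier results of these data known. Named genes are 12 anchors (Mki67, Top2a, Ccna2, Ccnb1, Cdk1, Foxm1, Mcm2, Mcm5, Pcna, Rrm2, Ccne1, E2f1), the 3 replication and 3 mitosis members with the smallest p in a comparison, members past the test against their phase, uncalled members where at most 5 were, and the 3 smallest p-values of other lists. Ccnb2, Plk1, Aurka, Nusap1, Cdc20 and Ube2c, where outside that rule, and the genes shown for promoters were chosen after their values were seen. Alternatives were another scaling, filter, tool, set of libraries, gene models, phase split and each library left out.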

Additional observations from a re-analysis of the deposited data

Results flagged for a closer look

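The effect of bleomycin on the cell cycle genes differed between wild-type IMs at day 7 and EGFP+ AMs at day 14. In a fit of all 24 libraries that tested the difference itself, chosen after seeing the data, the log2 fold change in IMs minus that in AMs was called above 0 for 35 of the 44 genes and below 0 for 1, where it was called above 0 for 21.6% of the 16687 genes tested and in either direction for 39%. E2f1 (2.18 ± 0.21 SE, adjusted p = 3.15e-09) and Uhrf1 (2.24 ± 0.22 SE, adjusted p = 3.55e-09) had the smallest adjusted p-values, and both rose in IMs and fell in AMs. Bub1b (1.33 ± 0.14 SE, adjusted p = 1.19e-08) and Tpx2 (2.09 ± 0.22 SE, adjusted p = 1.49e-08) followed. Across 5 alternatives the difference was above 0 for 33 to 39 genes and below 0 for 1. The gene below 0 was Cenpa (-0.91 ± 0.20 SE, adjusted p = 0.00077), which fell in wild-type IMs (-0.64 ± 0.06 SE, adjusted p = 2.58e-09) and was not called in AMs (0.23 ± 0.12 SE, adjusted p = 0.12). Gate, mouse line, EGFP sort, day after bleomycin and table differ between the 2 effects and cannot be told apart.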

How the results depend on the processing

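Counts of calls have no sign that could reverse, so those that moved are given by their values. No alternative reversed the difference of phase medians. With core genes (licensing and helicase against core mitosis genes), that difference was -0.84 in wild-type IMs after bleomycin, -0.48 for EGFP+ against EGFP- IMs, 0.37 for IMs at day 14 against day 7, -0.37 and -0.51 for AMs at days 14 and 30 against PBS, and 0.49 and 0.65 for IMs against AMs at day 14 and after PBS. With unchanged gene models it was 0.53 for IMs at day 14 against day 7, and -0.076 and -0.38 for AMs at days 14 and 30 against PBS. Lower genes numbered 7 and 6 for AMs at days 14 and 30 against PBS with total-count scaling, and at day 30 also 4 with no filter, 1 with all 24 libraries in the fit and 5 with the 2 groups alone. For AMs at day 30 against day 14 they numbered 2 with total-count and 3 with upper quartile scaling. For EGFP+ against EGFP- IMs 1 gene was lower with all 24 libraries or with the 2 groups alone, and for IMs at day 14 against day 7, 2 were higher with all 24 libraries.

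Reversals were of single genes near 0. With total-count scaling they were Pcna for IMs at day 14 against day 7 (-0.012) and for IMs against AMs at day 14 (-0.11), for AMs at day 14 against PBS Mki67 (-0.18), Top2a (-0.0016), Mcm5 (-0.011), Pcna (-0.027) and Rrm2 (-0.0055), Top2a for AMs at day 30 against PBS (-0.0062) and Mcm5 for AMs at day 30 against day 14 (0.031). Mki67 in AMs at day 14 was -0.043 with upper quartile scaling, -0.025 with no filter, -0.0015 with a replicate block and -0.0045 with DESeq2. Upper quartile scaling gave 0.014 for Mcm2 in AMs at day 30 against PBS and 0.033 for Mcm5 at day 30 against day 14. Pcna for IMs against AMs at day 14 was -0.0054 with no filter and -0.0082 with all 24 libraries. The causes were not tested.

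With 1 library left out at a time, ranges that crossed 0 were -0.18 to 0.039 for Mcm2 and -0.17 to 0.13 for Mki67 in AMs at day 14 against PBS, -0.20 to 0.13 for Foxm1 and -0.050 to 0.060 for Mcm2 at day 30 against PBS, -0.010 to 0.11 for Ccne1, -0.050 to 0.16 for Mcm2 and -0.13 to 0.050 for Mcm5 at day 30 against day 14, and -0.27 to 0.0051 for E2f1 and -0.077 to 0.079 for Pcna in IMs against AMs at day 14. The difference of phase medians ran from -0.77 to -0.71 in wild-type IMs, -0.39 to -0.35 for EGFP+ against EGFP- IMs, 0.41 to 0.49 for IMs at day 14 against day 7, -0.23 to -0.11 and -0.49 to -0.40 for AMs at days 14 and 30 against PBS, -0.19 to -0.034 between those days, and 0.33 to 0.42 and 0.39 to 0.42 for IMs against AMs at day 14 and after PBS. Higher genes numbered 0 to 2 for IMs at day 14 against day 7 and 4 to 9 for AMs at day 30 against day 14. Lower genes numbered 3 to 6 for AMs at day 30 against day 14 and 1 to 2 at day 30 against PBS.

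In no comparison was the correlation of deviations over 0.1 in all 3 pairs of same-numbered libraries, and the numbers were not taken as pairs. It came closest for IMs against AMs at day 14, at 0.1996, 0.0994 and 0.1384 in pairs 1, 2 and 3, and was above 0 in all 3 pairs also for IMs against AMs after PBS and for AMs at day 14 against PBS. The replicate block left 40 higher and 2 lower genes in wild-type IMs, 37 higher for EGFP+ against EGFP- IMs, 37 lower for IMs at day 14 against day 7, 15 higher and 4 lower, and 19 higher and 2 lower, for AMs at days 14 and 30 against PBS, 8 higher and 5 lower between those days, 37 lower for IMs against AMs at day 14 and 40 lower after PBS.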

Other observations

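Beyond the cell cycle, 2 lists that bear on the decision to divide were read. Of 14 p53 target genes, 13 were tested, and 8 rose and 5 fell in wild-type IMs after bleomycin, where 35.6% of all genes tested rose and 34.5% fell. Gadd45a, a stress gene, had 51.4 ± 1.91 CPM after bleomycin and 185 ± 15.1 CPM after PBS (mean ± SD, n = 3 each; log2 fold change -1.90 ± 0.06 SE, adjusted p = 2.21e-17). In AMs the same gene went the other way, with 51.9 ± 4.33 CPM at day 14 and 23.5 ± 3.71 CPM after PBS (1.33 ± 0.11 SE, adjusted p = 2.77e-08). There 7 of the 13 genes were higher and 1 lower, where 27.3% of all genes tested were higher and 27.6% lower. Phlda3, a p53-induced repressor of Akt, had 139.8 ± 2.92 CPM in AMs at day 30 and 40.4 ± 4.28 CPM at day 14 (1.72 ± 0.08 SE, adjusted p = 1.39e-10), opposite in direction to Cdkn1a in the same libraries.

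Of 12 genes of macrophage growth signals and brakes, 11 were tested, and 5 rose and 4 fell in wild-type IMs. Over all genes tested 35.6% rose there and 34.5% fell. Klf2, a factor of quiescence, fell to 137 ± 7.82 CPM after bleomycin, against 306 ± 5.39 CPM after PBS (-1.21 ± 0.05 SE, adjusted p = 2.07e-15). Csf1, the macrophage growth factor, was lower in EGFP+ IMs at day 14, at 21.9 ± 2.76 CPM, against 317 ± 59.5 CPM at day 7 (-3.64 ± 0.16 SE, adjusted p = 2.04e-08), a comparison across the tables. It was also lower in EGFP+ than EGFP- IMs at day 7 (-1.14 ± 0.14 SE, adjusted p = 0.000186), within 1 table.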
